A study of Mus musculus with 15 samples.

Results

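The 9 genes described here encode parts of the MHC class I and class II antigen presentation machinery of the mouse: B2m, H2-K1 and H2-D1 for class I, Cd74, H2-Aa, H2-Ab1, H2-Eb1 and H2-DMa for class II, and Ciita, the class II regulator. They were found as the non-control probes that carry one of these gene names, which gave 12 probes on 22 spots of the 55681 non-control probes on each array. RNA was measured on 15 single-colour arrays of primary mouse lung cells, with 4 fibroblast samples in vehicle (1x PBS), 3 fibroblast samples in 1 mM β-aminopropionitrile (BAPN), and 4 samples each of vehicle and BAPN in alveolar type II (ATII) cells. BAPN blocks the lysyl oxidases, enzymes that cross-link collagen and elastin, and exposure lasted 24 h in every group. Fibroblasts had gone through at least 3 passages and a starvation of 24 h beforehand, whereas ATII cells had been cultured for 3 days at an air-liquid interface to a monolayer, and cell type cannot be told apart from the way the cells were grown. The labels give no strain, age or genotype, and none states that replicates are separate animals or cultures. The p-values therefore reflect how far these samples scatter, and that scatter may be technical. An ATII BAPN array that the labels give as a replacement, without a number, is called replicate 5.

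MHC class I molecules, on the surface of nearly all nucleated cells, pair a polymorphic heavy chain such as H2-K or H2-D with β2-microglobulin and show peptides from inside the cell to CD8+ T cells. Class II molecules are heterodimers of an α and a β chain that show peptides taken up from outside to CD4+ T cells. They assemble with the invariant chain CD74, and H2-DM later exchanges the invariant chain fragment for peptide. CIITA is the master coactivator of class II genes, acting on the X and Y boxes of their promoters. Class II is the hallmark of professional antigen presenting cells, and ATII cells are among the epithelia known to carry it.

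Levels below are normalized log2 intensities, in which 0 is the 75th percentile of the array. They compare samples for a given probe and not probes with each other. Each array had 65.2% to 71.2% of its spots well above background, 0 spots were saturated, and the arrays lay on 2 slides, with odd replicate numbers on slide 1 and even numbers on slide 2. The cultures were described with cell type markers. Epithelial markers were higher in vehicle-treated ATII cells in 5 of 5 tested members and ATII markers in 6 of 7, although Slc34a2, a phosphate transporter gene of ATII cells, was well above background on 0 arrays. Over all features in vehicle, 14.4% were higher and 16.7% lower. Cdh1, Epcam, Sftpc, Sftpb and Nkx2-1 were above background on 0 or 1 vehicle fibroblast arrays. They entered the test through the ATII arrays, so these counts are descriptions. All 9 fibroblast markers were well above background on every array of both cultures, with a list mean of 5.42 to 6.13 in fibroblasts and 4.59 to 4.94 in ATII cells. All 14 macrophage markers were well above background on every fibroblast array, where the mean of the list was 1.14 to 2.28 in vehicle and 1.20 to 2.25 with BAPN. In ATII cells the macrophage list mean was −1.99 to −1.33 in vehicle and −1.99 to −1.51 with BAPN. Of the 14 macrophage markers, 13 were lower in vehicle-treated ATII cells and 1, Cd14, was higher. On each ATII array, 11 or 12 of the 14 macrophage markers were well above background. Ms4a7, a membrane protein gene of macrophages, was above background on 0 ATII arrays. Like C1qa and C1qc, each above background on 1 vehicle ATII array, it entered the test through the fibroblast arrays. The macrophage count is therefore a description. B cell and dendritic cell lists had means of −5.45 to −3.85 and −4.51 to −3.79 over all arrays. Per array, 1 to 5 of 5 B cell markers and 4 to 7 of 8 dendritic cell markers were well above background. Ptprc, a gene of all leukocytes, was so on every array. In such bulk samples, fewer cells of a type and less RNA per cell cannot be told apart.

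The promoters of these genes are shown because the class II regulator acts through short elements close to the start site. The RefSeq promoter table (GRCm38.p6) listed 6 of the 8 members looked up. The 120 bases just before the start are printed for 5 of them, 5′ to 3′ on the gene's strand, with matches to the core of the Y box (ATTGG, or CCAAT on the other strand) and to an X box-like pattern (AACNGATG) in capitals. H2-Aa lies at chr17:34287824-34287943 (minus strand), H2-Eb1 at chr17:34305747-34305866 (plus), B2m at chr2:122147567-122147686 (plus), H2-K1, at the second of 2 starts listed, at chr17:34000334-34000453 (minus) and H2-D1 at chr17:35262974-35263093 (plus).
H2-Aa: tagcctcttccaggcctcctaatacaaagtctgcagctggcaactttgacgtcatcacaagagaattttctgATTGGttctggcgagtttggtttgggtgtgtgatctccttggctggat
H2-Eb1: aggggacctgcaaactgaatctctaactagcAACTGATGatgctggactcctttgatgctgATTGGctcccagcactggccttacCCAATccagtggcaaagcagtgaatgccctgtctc
B2m: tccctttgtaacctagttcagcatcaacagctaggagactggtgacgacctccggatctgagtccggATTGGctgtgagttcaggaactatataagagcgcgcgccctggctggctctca
H2-K1: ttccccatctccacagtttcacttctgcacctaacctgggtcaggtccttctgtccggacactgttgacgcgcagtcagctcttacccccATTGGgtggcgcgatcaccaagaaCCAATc
H2-D1: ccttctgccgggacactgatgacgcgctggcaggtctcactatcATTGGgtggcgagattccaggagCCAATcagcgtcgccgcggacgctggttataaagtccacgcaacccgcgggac

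ATTGG on either strand was found in the 300-base window of all 6 members listed, H2-DMa included (at the second of its start sites), and in 37.4% of all 32851 promoters. The match began 48 bases before the start in H2-Aa, 59 in H2-Eb1, 53 in B2m and 76 in H2-D1. It began 16 and 30 bases before the 2 starts of H2-K1. In H2-DMa it began 198 bases before the second start, with 0 matches at the first. H2-Eb1, H2-K1 and H2-D1 each held a further match on the opposite strand. The share of 37.4% counts single promoters, whereas a member counted with a match at any of its starts. AACNGATG on either strand was found in 1 of the 6 members, H2-Eb1, 89 bases before the start, and in 2.32% of all promoters. The patterns do not overlap each other in these windows. Such matches are descriptions of sequence, not measured binding sites.

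Probe sequence bears on the values because class I and class II chains are polymorphic and have close relatives, so an array probe can differ from the allele of the cells or detect a related gene. H2-K1 had 3 probes and H2-Ab1 had 2. The H2-K1 probes that do not represent the gene are printed with the run of 22 bases that they share in capitals. The first lies on the minus strand at chr17:34133984-34134043 (mm9, the build of the array design), and the second was designed on a sequence described as H-2K(d) and has no position in the files. The only H2-Aa probe lies on the minus strand at chr17:34421285-34421344 (mm9).
H2-K1 first: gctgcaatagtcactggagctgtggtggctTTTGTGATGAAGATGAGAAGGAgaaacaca
H2-K1 second: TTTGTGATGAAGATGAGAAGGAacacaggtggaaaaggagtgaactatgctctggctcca
H2-Aa: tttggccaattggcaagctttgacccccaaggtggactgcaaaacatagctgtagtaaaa

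The probes that represent the other members lie, in mm9, at chr2:121978401-121978460 for B2m, chr17:34133055-34133114 for H2-K1, chr17:35403886-35403945 for H2-D1, chr18:60972075-60972132 for Cd74, chr17:34406296-34406355 for H2-Ab1, chr17:34453075-34453134 for H2-Eb1 and chr16:10526568-10526627 for Ciita. The H2-DMa probe spans chr17:34274300-34274863. Exon and UTR boundaries in mm9 were not used here.

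ATII cells were compared with fibroblasts in vehicle, to describe in which culture each gene was high. The invariant chain gene Cd74, the class I gene H2-K1 and the class II β chain genes were higher in ATII cells, and H2-DMa was lower. Of the 9 members, 8 were bright enough to be tested and 5 passed, 4 higher and 1 lower (limma with Benjamini-Hochberg adjustment over all features). Over all 32470 features tested, 31.1% passed, 14.4% higher and 16.7% lower. The groups did not overlap for 4 tested members in the higher direction and 1 in the lower, and for 34.6% of features, 15.4% higher and 19.2% lower. The median log2 change was 0.79 over the tested members and −0.13 over all features, a median that quantile scaling moves to −0.02.

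**Figure D1:**
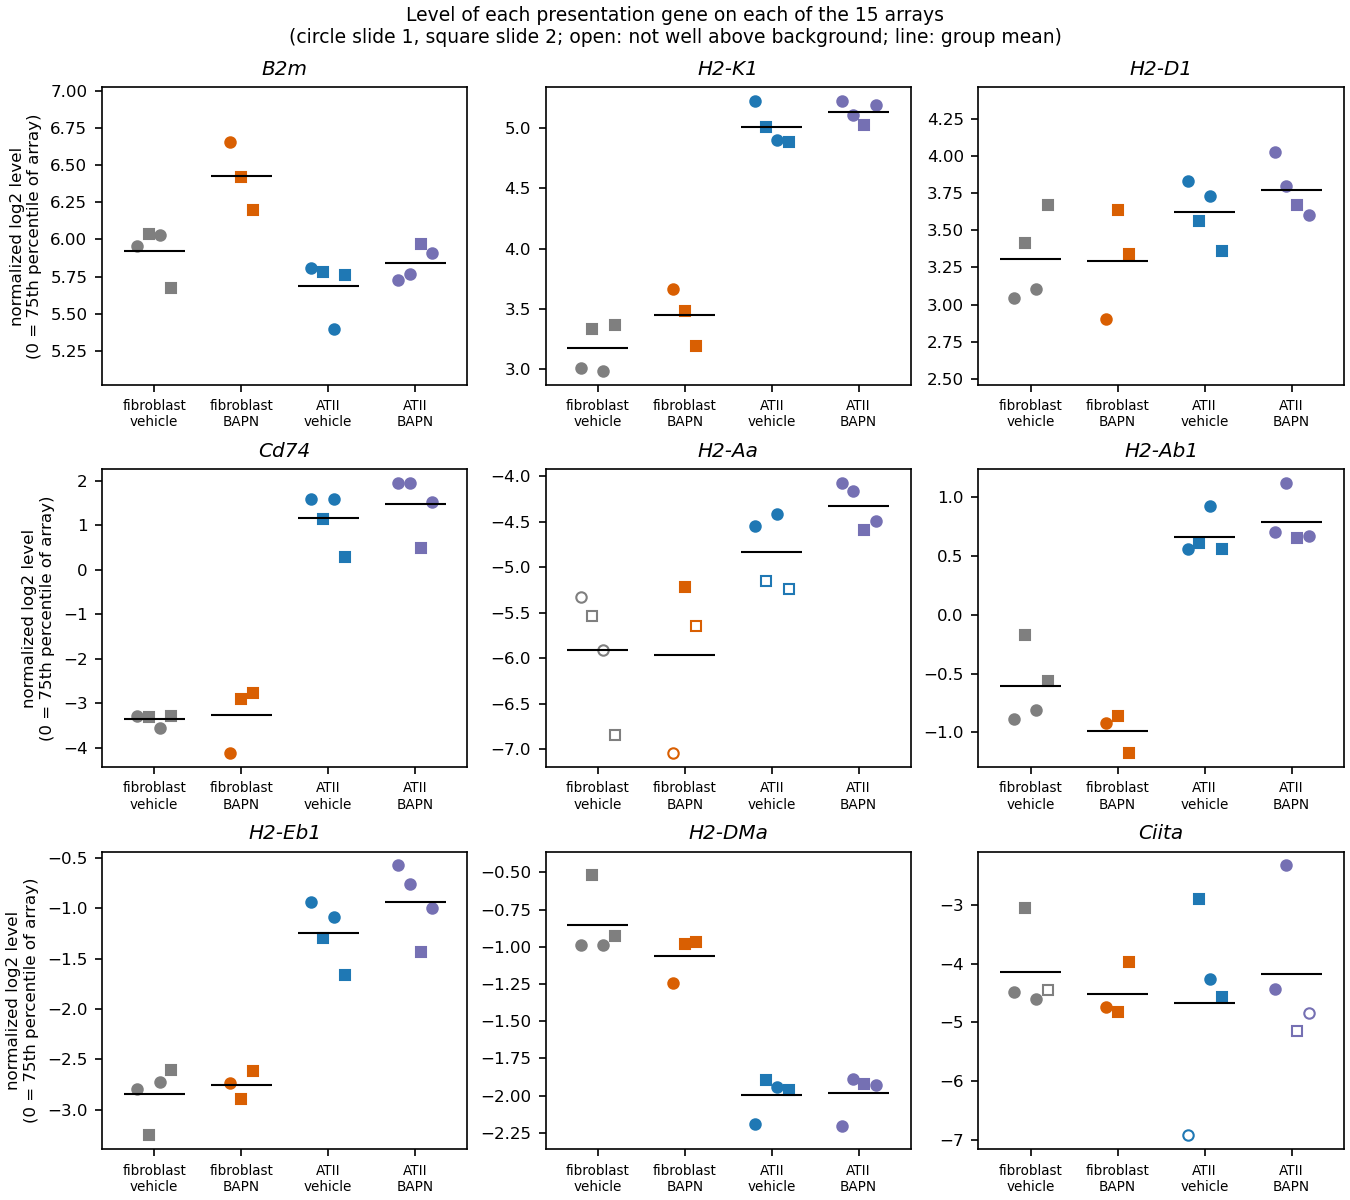
Normalized log2 level of each gene (vertical axis, scaled per panel) on each array, by group, with the group mean as a line, circles for slide 1, squares for slide 2 and open symbols where the probe was not well above background. Cd74, H2-K1, H2-Ab1 and H2-Eb1 sit higher on all 8 ATII arrays than on all 7 fibroblast arrays, H2-DMa sits lower, and the Ciita groups overlap.

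Among the 3 class I members, the heavy chain gene H2-K1 was the one that differed most. Its level was 3.01, 3.33, 2.99 and 3.36 on the vehicle fibroblast arrays (replicates 1 to 4) and 5.22, 5.01, 4.90 and 4.88 on the vehicle ATII arrays. The groups did not overlap, and no ATII array fell below 4.88. H2-K1 was 3.56-fold higher in ATII cells (1.83 ± 0.13 SE on the log2 scale; adjusted p = 2.87e-07). The other H2-K1 probes, printed above, gave smaller log2 changes, 1.15 for the first and 1.21 for the second, and both passed. The log2 change of the representing probe was 2.06 on slide 1 and 1.60 on slide 2.

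H2-D1, the other classical heavy chain gene, had levels of 3.04, 3.42, 3.11 and 3.67 in fibroblasts and 3.83, 3.56, 3.73 and 3.36 in ATII cells. The groups overlapped and the log2 change of 0.31 (95% interval −0.09 to 0.71) did not pass (adjusted p = 0.241). The interval leaves room for a difference of up to 1.64-fold. On slide 1 alone the value was 0.70 and passed (adjusted p = 0.0278), while on slide 2 it was −0.08 (adjusted p = 0.791).

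B2m, the gene of the light chain shared by class I molecules, had a level of 5.95, 6.04, 6.03 and 5.67 in vehicle fibroblasts and 5.81, 5.78, 5.39 and 5.76 in ATII cells. These groups overlapped, with a log2 change of −0.24 (95% interval −0.53 to 0.06; adjusted p = 0.228).

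Among the class II members tested, Cd74, the invariant chain that chaperones class II molecules, differed most. Its level was −3.29, −3.32, −3.56 and −3.30 in fibroblasts and 1.60, 1.15, 1.60 and 0.30 in ATII cells. All fibroblast arrays were well above background and close to each other, whereas ATII replicate 4 was lower than the other ATII arrays. Cd74 was 23.1-fold higher in ATII cells (4.53 ± 0.38 SE on the log2 scale; 95% interval 13-fold to 41-fold; adjusted p = 1.15e-06). The log2 change was 5.02 on slide 1 and 4.03 on slide 2.

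The β chain genes of both class II isotypes were higher as well. H2-Ab1, the β chain gene of I-A, had levels of −0.89, −0.17, −0.81 and −0.56 in fibroblasts and 0.56, 0.61, 0.92 and 0.56 in ATII cells. It was 2.41-fold higher in ATII cells (1.27 ± 0.17 SE on the log2 scale; adjusted p = 6.69e-05), and its second probe gave 1.18. H2-Eb1, the β chain gene of I-E, had levels of −2.80, −3.25, −2.73 and −2.60 in fibroblasts and −0.94, −1.29, −1.09 and −1.66 in ATII cells. It was 3.03-fold higher (log2 change 1.60 ± 0.21, SE; adjusted p = 5.25e-05). Neither gene's groups overlapped. On slides 1 and 2 the changes were 1.59 and 0.95 for H2-Ab1 and 1.75 and 1.45 for H2-Eb1.

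H2-Aa, the α chain gene of I-A, was near the limit of detection. The probe was well above background on 0 of 4 fibroblast arrays and on 2 of 4 ATII arrays, replicates 1 and 3, which are those of slide 1. It was therefore not tested in vehicle. The ATII levels (−4.55, −5.15, −4.41 and −5.23) were all above the fibroblast levels (−5.33, −5.54, −5.91 and −6.84), and the bound is at least 1.23-fold higher in ATII cells. Such a bound sets the mean of the brighter group against, on each array of the dimmer group, the higher of the probe's own signal and the lowest signal well above background. The α chain probe was thus dim on arrays where the β chain probe of the same heterodimer was well above background, although both probes match polymorphic chains and the labels give no strain.

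H2-DMa, which encodes a chain of the peptide exchange factor H2-DM, differed in the other direction. Its level was −0.99, −0.52, −0.99 and −0.93 in fibroblasts and −2.19, −1.90, −1.94 and −1.97 in ATII cells, without overlap. It was 2.21-fold lower in ATII cells (−1.15 ± 0.13 SE on the log2 scale; adjusted p = 1.88e-05), with −1.08 on slide 1 and −1.21 on slide 2. The fibroblast array with the highest H2-DMa level, replicate 2, also had the highest macrophage list mean (2.28), and the macrophage list was lower in ATII cells as well. With BAPN, H2-DMa was highest in fibroblast replicate 4 (−0.97, against −0.98 in replicate 2), while the macrophage list mean was highest in replicate 2 (2.25, against 1.27 in replicate 4). The part of this in the H2-DMa difference was not tested. H2-DMb1, which encodes the partner chain, had means of 1.25 in fibroblasts and 1.24 in ATII cells.

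Ciita was dim, with 3 of 4 arrays well above background in each culture. Its level was −4.48, −3.05, −4.59 and −4.44 in fibroblasts and −6.93, −2.90, −4.25 and −4.57 in ATII cells. The spread within ATII cells (SD 1.68) was larger than the difference between the cultures, and the log2 change of −0.52 had a 95% interval of −2.18 to 1.14 (adjusted p = 0.678). A difference of 2-fold either way was not detectable with this probe.

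The same comparison was made between the BAPN-treated arrays, which the vehicle comparison does not use, although both take their error from the same fit and the BAPN arrays also enter the BAPN comparisons below. Cd74, H2-K1, H2-Ab1 and H2-Eb1 were again higher in ATII cells and H2-DMa lower, and B2m (lower) passed as well. With H2-Aa, 7 of 9 tested members passed, 5 higher and 2 lower, but H2-Aa entered the test mainly through the ATII arrays, where it was higher, and its call is not read as support. Without it, 6 of 8 passed, 4 higher and 2 lower, where 29.0% of 32268 features passed, 13.2% higher and 15.8% lower. Those 6 members, 4 higher and 2 lower, had groups that did not overlap, as did 34.0% of features, 15.4% higher and 18.5% lower.

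Cd74 levels were −4.13, −2.91 and −2.76 in fibroblasts (replicates 1, 2 and 4) and 1.95, 1.95, 0.50 and 1.53 in ATII cells (replicates 1, 3, 4 and 5). Replicate 4 was the lowest ATII array here too. Cd74 was 26.9-fold higher (log2 change 4.75 ± 0.41, SE; adjusted p = 1.80e-06), with 5.94 on slide 1 and 3.33 on slide 2. H2-K1 levels were 3.67, 3.48 and 3.19 in fibroblasts and 5.23, 5.11, 5.02 and 5.19 in ATII cells. It was 3.22-fold higher (adjusted p = 1.49e-06). The H2-K1 groups did not overlap.

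H2-Ab1 levels were −0.92, −0.86 and −1.18 in fibroblasts and 0.70, 1.12, 0.65 and 0.67 in ATII cells, a 3.41-fold difference (log2 change 1.77 ± 0.18, SE; adjusted p = 8.21e-06). H2-Eb1 levels were −2.74, −2.89 and −2.62 in fibroblasts and −0.57, −0.76, −1.43 and −0.99 in ATII cells, a 3.50-fold difference (adjusted p = 4.05e-05). For both β chain genes every ATII array was above every fibroblast array. H2-DMa levels were −1.24, −0.98 and −0.97 in fibroblasts and −2.20, −1.89, −1.92 and −1.93 in ATII cells, and the gene was 1.89-fold lower in ATII cells (adjusted p = 0.000273). On slide 2 alone, with 1 ATII and 2 fibroblast arrays, H2-Eb1 (1.32, adjusted p = 0.105) and H2-DMa (−0.95, adjusted p = 0.0916) did not pass.

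H2-Aa was well above background on all 4 ATII BAPN arrays (−4.07, −4.16, −4.59 and −4.49) and on 1 of 3 fibroblast BAPN arrays (−7.04, −5.21 and −5.65). Every ATII level was above every fibroblast level. It met the filter of 3 arrays only with the ATII arrays, so no test is given, and the difference of the means, 1.64 on the log2 scale, is a description in which only 1 fibroblast array measured the gene. The difference was 2.80 on slide 1, where the fibroblast array was not above background. It was 0.41 with normexp background correction and 1.10 without fibroblast BAPN replicate 1.

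B2m levels under BAPN were 6.65, 6.42 and 6.20 in fibroblasts and 5.73, 5.77, 5.97 and 5.91 in ATII cells, without overlap. B2m was 1.49-fold lower in ATII cells (−0.58 ± 0.15 SE on the log2 scale; adjusted p = 0.00900). Among BAPN arrays, slide 1 holds 1 fibroblast array and slide 2 holds 1 ATII array, and within a slide the lone array is assumed to vary like the others. The change was −0.85 on slide 1 (adjusted p = 0.0243) and −0.34 on slide 2 (adjusted p = 0.492), and with the replicate number as a block it was −0.55 (adjusted p = 0.0658). H2-D1 (0.48, 95% interval 0.05 to 0.91; adjusted p = 0.0900) and Ciita (0.33, 95% interval −1.47 to 2.12; adjusted p = 0.832) did not pass. H2-D1 passed on slide 1 alone, against the 1 fibroblast array there, which was the lowest for H2-D1 (0.91, adjusted p = 0.0178), with normexp background correction (0.57, adjusted p = 0.0383) and without fibroblast BAPN replicate 2 (0.65, adjusted p = 0.0407).

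**Figure D2:**
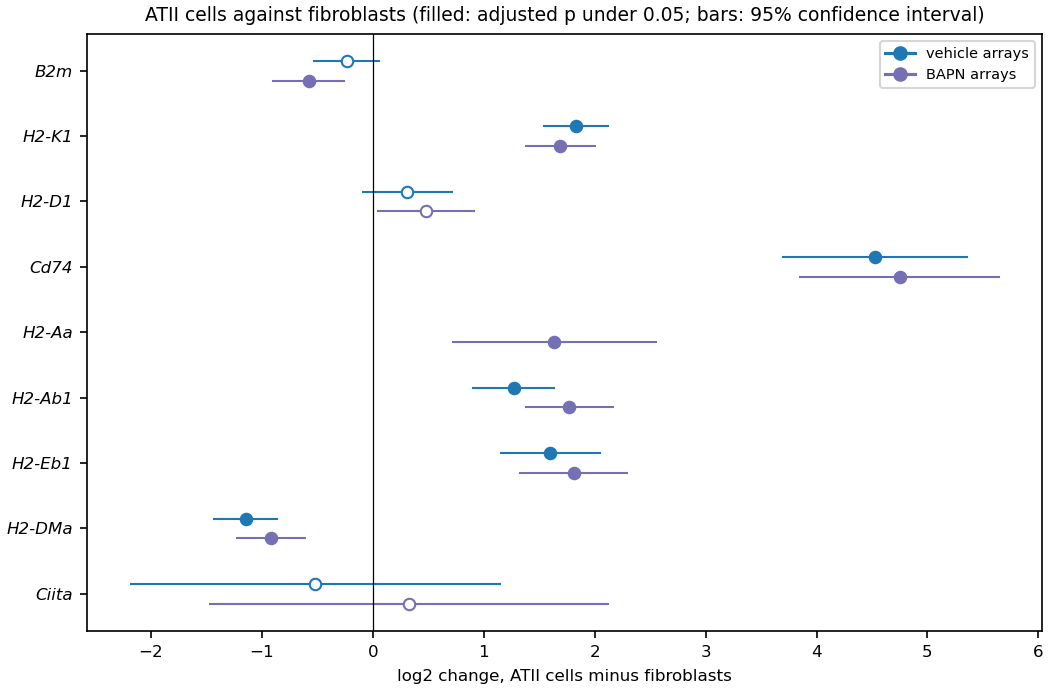
Log2 change of each gene between ATII cells and fibroblasts (horizontal axis) in vehicle and BAPN arrays, with 95% confidence intervals and filled symbols where the adjusted p was under 0.05. Cd74 stands near 4.53 and 4.75, H2-DMa lies below 0 in both, and H2-Aa has no vehicle value because it was not tested there, while its filled BAPN symbol rests on 1 fibroblast array above background.

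The effect of BAPN within each culture is the comparison for which the series was made. In ATII cells, 0 of the 9 members passed. By the representing probes, the log2 changes ran from 0.01 for H2-DMa to 0.50 for H2-Aa, and all 9 were above 0. The other H2-K1 probes gave −0.07 for the first and 0.05 for the second. H2-DMa was −0.02 with quantile scaling and with the deposited table and −0.07 after position correction. Cd74 was −0.22 on slide 2 alone. Over all 32045 features 0% passed (0 features by limma, with 3236 at an unadjusted p under 0.05). The groups overlapped for all 9 members, and did not for 9.10% of features, 3.44% higher and 5.66% lower. The intervals say how large an effect these arrays could have missed. For H2-K1 the log2 change was 0.13 (95% interval −0.16 to 0.42), for B2m 0.16 (−0.14 to 0.45), for H2-DMa 0.01 (−0.27 to 0.30) and for H2-Ab1 0.13 (−0.24 to 0.49). For these 4 genes the interval ends at or below a 1.40-fold rise.

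For the others the data leave more room. The interval was −0.25 to 0.55 for H2-D1 (0.15), −0.14 to 0.75 for H2-Eb1 (0.31), −0.51 to 1.15 for Cd74 (0.32), −0.34 to 1.35 for H2-Aa (0.50) and −1.18 to 2.14 for Ciita (0.48). H2-Aa was above background on 2 of 4 vehicle arrays and on all 4 BAPN arrays, and those groups overlapped.

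In fibroblasts, B2m was the single member that passed. Its level was 5.95, 6.04, 6.03 and 5.67 with vehicle and 6.65, 6.42 and 6.20 with BAPN, so that each BAPN array was above each vehicle array. B2m was 1.41-fold higher with BAPN (log2 change 0.50 ± 0.15, SE; 95% interval 0.18 to 0.82; adjusted p = 0.0400). Of the 8 members tested 1 passed, and 13.1% of 32255 features passed, 2.24% higher and 10.8% lower. Groups without overlap in the higher direction were found for 1 of 8 members with 0 lower, and for 24.0% of features, 7.35% higher and 16.6% lower.

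This call was near its threshold. The log2 change was 0.66 on slide 1, which holds 1 BAPN array (adjusted p = 0.110), and 0.45 on slide 2 (adjusted p = 0.196). B2m passed in 6 of 20 alternatives, with changes from 0.39 to 0.66 and adjusted p from 0.0270 to 0.196. It missed with the fibroblast arrays alone (adjusted p = 0.124), with the replicate number as a block (0.47, adjusted p = 0.119), and without any one of the 4 vehicle arrays or BAPN replicates 1 or 2 (adjusted p from 0.0538 to 0.135). The direction was the same in each.

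The other members in fibroblasts had intervals that included 0. H2-K1 had a log2 change of 0.27 (95% interval −0.04 to 0.59), H2-D1 −0.02 (−0.45 to 0.41), Cd74 0.10 (−0.79 to 0.99), H2-Ab1 −0.38 (−0.77 to 0.02), H2-Eb1 0.10 (−0.38 to 0.58), H2-DMa −0.21 (−0.52 to 0.10) and Ciita −0.37 (−2.16 to 1.43). Adjusted p ran from 0.208 for H2-Ab1 to 0.968 for H2-D1. The other H2-K1 probes gave −0.06 for the first and 0.06 for the second, and neither passed. For Cd74, BAPN replicate 1 (−4.13) lay below every vehicle array and replicates 2 and 4 lay above. H2-Aa, above background on 0 of 4 vehicle and 1 of 3 BAPN arrays, was not tested.

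**Figure D3:**
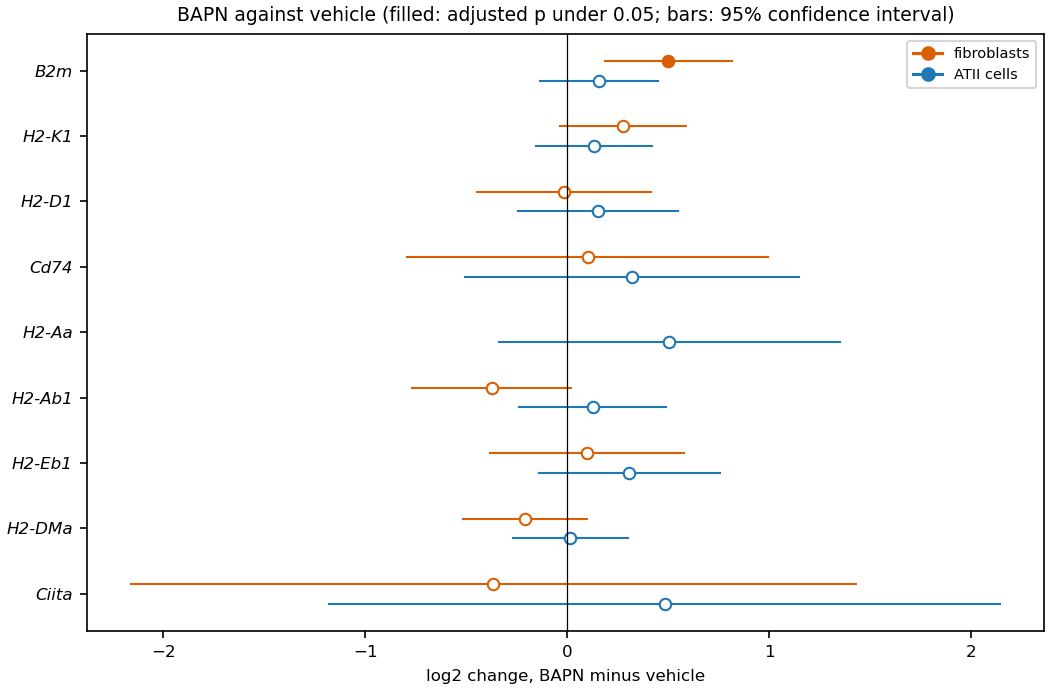
Log2 change between BAPN and vehicle (horizontal axis) for each gene in fibroblasts and in ATII cells, with 95% confidence intervals and filled symbols where the adjusted p was under 0.05. B2m in fibroblasts, at 0.50, is the one filled symbol, and the widest intervals are those of Ciita.

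The difference between the BAPN effects of the cultures (ATII cells minus fibroblasts) was tested directly, and 0 of 9 members passed, as did 0% of 34287 features (0 features, with 4723 at an unadjusted p under 0.05). For B2m it was −0.34 (95% interval −0.77 to 0.09; adjusted p = 0.458), for H2-Ab1 0.50 (−0.04 to 1.04; adjusted p = 0.392) and for Cd74 0.22 (−1.0 to 1.44; adjusted p = 0.907). The B2m effect in fibroblasts is therefore not shown to differ from that in ATII cells.

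Probes spotted several times show how position on the array moved with the BAPN effect. The arrays have 164 columns, and of the 4193 features with a single spot that passed in fibroblasts, 94.9% lay in columns above 82, which hold 50.2% of those tested. The representing H2-K1 probe occurs at 10 spots. In fibroblasts its log2 change with BAPN was 0.11 to 0.28 at the 6 spots in columns 6 to 49, 0.24 at column 85, and 0.45, 0.54 and 0.49 at columns 128, 130 and 138. The same RNA and the same probe sequence thus gave values that differed between columns. In ATII cells the 10 spots gave 0.04 to 0.21. Between ATII cells and fibroblasts in vehicle they gave 1.74 to 1.96.

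The B2m spots lie in columns 84 and 113, and their changes with BAPN in fibroblasts were 0.47 and 0.54. After a correction of each array for spot position, B2m kept a change of 0.52 (adjusted p = 0.0270). With that correction 4633 features passed in fibroblasts, 1233 higher and 3400 lower, against 4211 without it. Whether it removed the effect of position was not tested. In fibroblasts the H2-K1 spots in columns 128 to 138 had larger changes than those in columns 6 to 49. Both B2m spots lie above column 82, so B2m has no spot on the left side. Over all single-spot features tested in fibroblasts, the direction was the other one. Their median log2 change was −0.081 in columns above 82 and 0.079 in the other columns.

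**Figure D4:**
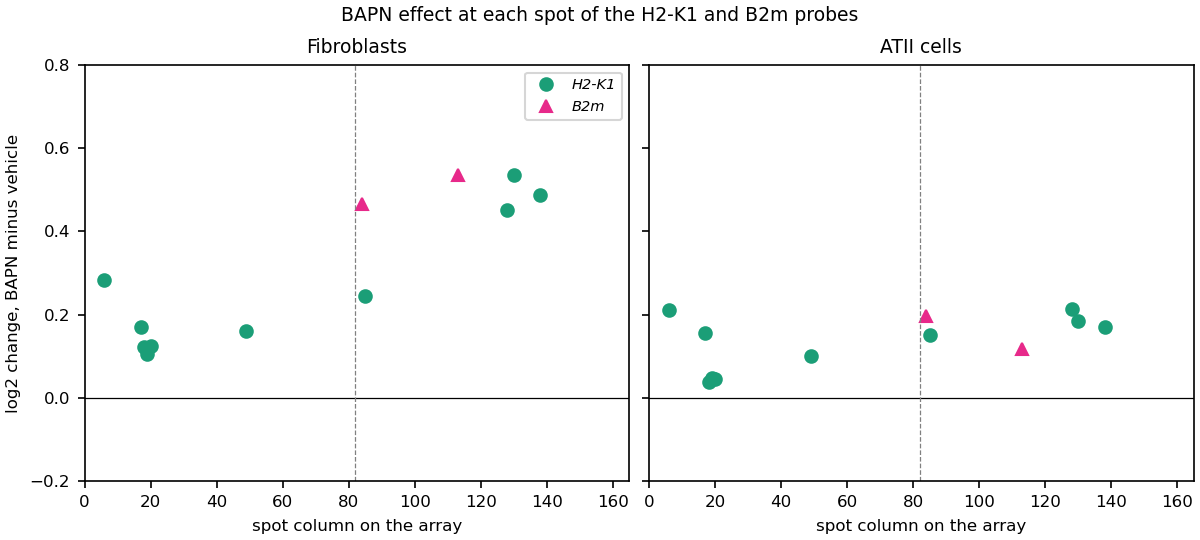
Log2 change between BAPN and vehicle (vertical axis) at each spot of the representing H2-K1 and B2m probes against the spot's column on the array (horizontal axis), in fibroblasts and in ATII cells, with a dashed line at column 82. In fibroblasts the H2-K1 spots in columns 128 to 138 reach 0.45 to 0.54, above the 0.11 to 0.28 of columns 6 to 49.

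The wider presentation pathway was described with a list of 71 genes in 6 roles, 66 of them with a probe and 62 bright enough to be tested. In vehicle 20 were higher and 11 lower in ATII cells, with a median log2 change of 0.11, and under BAPN 20 were higher and 14 lower. Over all features, 14.4% were higher and 16.7% lower in vehicle, and 13.2% and 15.8% under BAPN.

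Peptide supply and class I loading genes were mostly higher in ATII cells, 8 of 13 against 1 lower in vehicle, where 14.4% of all features were higher and 16.7% lower. Erap1, an aminopeptidase gene that trims class I peptides, was 4.44-fold higher (log2 change 2.15 ± 0.13, SE; adjusted p = 6.51e-08). Tapbp, the tapasin gene, was 2.12-fold higher (adjusted p = 3.70e-05). Tap1, which encodes a subunit of the peptide transporter, was 2.07-fold lower (adjusted p = 0.00173) and was the one gene of this role that was lower.

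Of 14 tested class I chains and relatives, 5 were higher and 3 lower, against the same 14.4% and 16.7% of all features. Cd1d1, which presents lipids to NKT cells, was 4.39-fold higher, H2-Bl 2.36-fold higher and H2-T10 2.38-fold lower. These genes are close relatives of H2-K1 and H2-D1 in part, so signals may be shared between them.

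Of the class II chains and editors other than the members, 3 of 6 with a probe were bright enough to be tested and 0 passed (H2-DMb1, H2-Ob and H2-Eb2, with a median of −0.25). H2-Ea, H2-Oa and H2-DMb2 were well above background on 0 of 15 arrays. Among 9 class II processing genes, 0 were higher and 2 lower, where 31.1% of all features passed, 14.4% higher and 16.7% lower. Ctss, the gene of cathepsin S, which degrades the invariant chain, was 14.7-fold lower in ATII cells (−3.88 ± 0.41 SE on the log2 scale; adjusted p = 9.46e-06). Its level was 2.22, 3.02, 1.79 and 2.28 in fibroblasts and −1.38, −2.37, −1.64 and −0.81 in ATII cells. Ctss thus differed in the direction opposite to Cd74, and its highest fibroblast arrays in vehicle and in BAPN, replicate 2 in each, were those with the highest macrophage list means (2.28 and 2.25). The part of macrophage RNA in this difference was not tested. Marchf1, which encodes a ubiquitin ligase for class II, was 2.23-fold lower (adjusted p = 0.000474).

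Of 17 regulators, 5 were higher and 2 lower in ATII cells in vehicle, against 14.4% and 16.7% of all features. Irf1, an interferon-induced activator of class I genes, was 2.83-fold higher (adjusted p = 8.70e-07). Irf8, a factor of myeloid cells, was 7.24-fold lower (adjusted p = 5.63e-05), again with replicate 2 highest among vehicle fibroblasts (−0.75). Jak1, which encodes a kinase of interferon signalling, was 1.55-fold lower. Among 6 tested genes of costimulation and adhesion, 2 were higher and 3 lower, against the same shares of all features. Cd40, a receptor that activates antigen presenting cells, was 14.6-fold higher in ATII cells (levels of 1.68, 1.32, 0.97 and 1.02 against −3.06, −2.54, −2.92 and −1.96; adjusted p = 5.72e-08). Icosl, a ligand for T cells, was 3.94-fold lower, and Icam1, an adhesion gene, 1.88-fold higher.

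Between the BAPN arrays, 11 of 14 class I chains and relatives passed, 7 higher and 4 lower, against 29.0% of all features (13.2% higher and 15.8% lower), led by Cd1d1 (1.76 on the log2 scale), H2-Q4 (−1.67) and H2-T10 (−1.64). Peptide supply and loading genes were again mostly higher, 7 against 1 lower, with Tapbp at 1.41, Erap1 at 1.36 and the tapasin relative Tapbpl at 1.27. Class II processing genes were 0 higher and 3 lower, with Ctss at −4.64, Marchf1 at −1.08 and Sppl2a, a protease that clears invariant chain remnants, at −0.36. Regulators were 4 higher and 3 lower, with Irf8 at −2.86, Irf1 at 1.05 and Jak1 at −0.82. Among genes of costimulation, Cd40 stood at 3.58, Icosl at −1.87 and Cd80, a ligand for CD28, at −1.14.

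**Figure D5:**
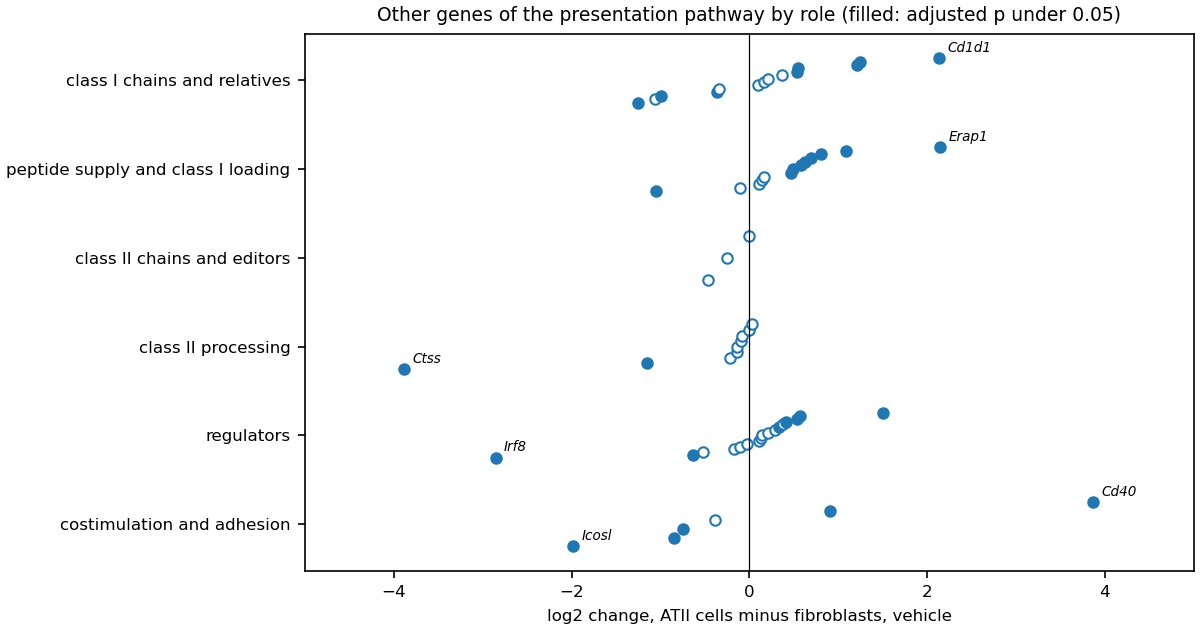
Log2 change between ATII cells and fibroblasts in vehicle (horizontal axis) of the 62 tested pathway genes other than the members, by role, with filled symbols where the adjusted p was under 0.05. Peptide supply genes lie mostly above 0, 0 class II processing genes are filled above 0, and Ctss at −3.88 and Cd40 at 3.87 are the extremes.

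With BAPN, 0 of 62 pathway genes passed in ATII cells and 4 in fibroblasts, 2 higher and 2 lower. Over all features 13.1% passed in fibroblasts, 2.24% higher and 10.8% lower, so the count is not read as a result about the pathway. Erap1 was 1.70-fold higher (levels of −3.41, −3.18 and −3.11 against −3.90, −3.92, −3.84 and −4.33; adjusted p = 0.0102). Nfyb, which encodes a subunit of the factor that binds the Y box, was higher by 0.59 on the log2 scale (adjusted p = 0.0259), and its other probes gave 0.32 and 0.31 on the log2 scale and did not pass. Nlrc5, the class I coactivator, was 1.80-fold lower by its brighter probe (adjusted p = 0.00954), whereas its other probe gave 1.15 and did not pass (adjusted p = 0.146). H2-Q1, a class I relative, passed as lower, but it met the filter through the vehicle arrays (4 of 4 above background, against 1 of 3 with BAPN), so its difference of −1.79 on the log2 scale is a description. The representing probes of these 4 genes lie in columns 145, 144, 120 and 136, all in the part of the array that held most calls, and the part of position was not tested gene by gene. After the position correction Nfyb missed the threshold (adjusted p = 0.0865), and with the replicate number as a block all 4 missed it (adjusted p from 0.0551 to 0.0747). With normexp background correction Erap1 had a change of 0.17 (adjusted p = 0.386), H2-Q1 had −0.47 and Nlrc5 −0.44, and with the mean of its probes Nlrc5 had 0.15 (adjusted p = 0.786).

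The genes with the most similar profile over the 15 arrays were found for Cd74 and B2m. Among 18378 named candidates, those with the smallest root mean square difference of centred log2 levels from Cd74 were Ager (0.34), a receptor gene of alveolar type I cells, Scnn1a (0.36), a sodium channel gene, Wnt7a (0.38), a ligand gene, and the keratin genes Krt42 (0.39) and Krt19 (0.39). The SD of Cd74 itself over these arrays was 2.46. The genes most like B2m were Aph1b (0.12), Hikeshi (0.13), AW554918 (0.13), Mfsd14b (0.13) and Myadm (0.14), where the SD of B2m was 0.31. The arrays share cell type and treatment groups, and a profile that separates the cultures is common among these features.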

How the data were processed

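Total RNA of 15 samples was hybridised to Agilent single-colour arrays. The deposited scanner files hold background-subtracted Cy3 intensities from Agilent Feature Extraction 10.7.3.1, per the file headers. The authors' deposited table of log2 values, whose normalization is not given in the sources used here, correlated with the scanner values at 0.999 or more on each array and served as an alternative; its medians are 5.96. From the scanner files, log2 intensity minus each array's 75th percentile was computed, flagged spots were left out, spots of a probe were averaged, and the brightest probe represented a gene. Probes were named through RefSeq tables by accession (27428) or symbol (3483, and 507 by an older symbol), and 24263 stayed unnamed. A feature was tested where 3 or more arrays in a comparison had it well above background, with limma 3.58.1 in R 4.3.3, as 4 group means over all 15 arrays (11 residual degrees of freedom), two-sided, at an adjusted p under 0.05. The fit was tested on simulated data drawn without slide or spot position effects, so that test says nothing of those effects in these arrays.

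All members are named, and of the pathway list up to 3 genes per role with the largest called change between cell types and all called for BAPN, up to 5 per cell type. The members and lists were chosen with earlier results of these data known, and the motif letters after members' promoters were seen. Alternatives covered background correction, scaling, the filter, the choice of probe, slide, spot position, the replicate block and leaving out each array. Replicate numbers were compared between groups: in vehicle, same-numbered ATII and fibroblast arrays deviated together over 24298 features (correlations 0.22, 0.25, 0.39 and 0.32), and those numbers also share slides. In the other comparisons the correlations were 0.05 and 0.21 (between cell types under BAPN), −0.05, 0.28 and 0.04 (fibroblasts) and 0.41, −0.04 and −0.02 (ATII cells). Those pairs share a slide as well as a number, and whether a number stands for a common origin was not tested. Fibroblast BAPN replicate 3 was not among the 15 samples analysed here. The number of arrays limits the precision.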

Additional observations from a re-analysis of the deposited data

Results flagged for a closer look

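A single array stood apart from the other 3 of its group in 7 of the 27 sets of 4 arrays examined (9 genes in 3 groups), where chance gives about 1 in 20 sets. Replicate 3 of a group was the array in 4 of the 7 sets. Cd74 was lowest in fibroblast vehicle replicate 3, at −3.56. H2-Ab1 was highest in ATII vehicle replicate 3, at 0.92, and in ATII BAPN replicate 3, at 1.12. B2m was lowest in ATII vehicle replicate 3, at 5.39. In fibroblast vehicle replicate 2, H2-DMa was highest at −0.52 and Ciita was highest at −3.05, and this array also had the highest macrophage list mean of its group, 2.28. H2-DMa was lowest in ATII BAPN replicate 1, at −2.20. Without these arrays, the ATII and fibroblast differences of Cd74, H2-Ab1 and H2-DMa in vehicle and under BAPN still passed.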

How the results depend on the processing

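In vehicle, the calls of Cd74, H2-K1, H2-Ab1, H2-Eb1 and H2-DMa held in all 21 alternatives run for each. Under BAPN, 3 members passed on slide 2 alone, which holds 1 ATII BAPN array. With the replicate block, 5 members passed in vehicle, where 9067 of 32470 features passed. Under BAPN 6 members passed with that block, where 6709 of 31921 features passed. Those 6 include H2-Aa, which entered the test mainly through the ATII arrays, and its call is not read as support. In both BAPN comparisons 0 members and 0 features passed with the block. In fibroblasts treated with BAPN, 0 members passed with the deposited table, without a filter, with normexp background, with only the groups compared, with quantile scaling, with the replicate block, on slide 1 and on slide 2, and 0 to 1 when an array was left out. Signs turned only among changes that passed neither way. On slide 2, Ciita (0.015) and H2-D1 (−0.081) turned in vehicle, H2-K1 (−0.011) in fibroblasts with BAPN, Cd74 (−0.22) in ATII cells with BAPN, and Cd74 (−0.70), H2-Eb1 (−0.13), Ciita (−0.76) and H2-K1 (0.087) in the difference of BAPN effects. In fibroblasts with BAPN, Cd74 turned on slide 1 (−0.70) and H2-D1 after position correction (0.15). In ATII cells with BAPN, H2-DMa turned with quantile scaling (−0.018), the deposited table (−0.024) and position correction (−0.071). With an array left out, Ciita ran from −1.11 to 0.24 in vehicle and −0.29 to 0.65 under BAPN. In fibroblasts with BAPN, H2-Eb1 ran from −0.039 to 0.18, H2-D1 from −0.19 to 0.18 and Cd74 from −0.15 to 0.53. In ATII cells with BAPN, H2-DMa ran from −0.050 to 0.087 and Ciita from −0.27 to 1.07. In the difference of effects, Cd74 ran from −0.21 to 0.55 and H2-D1 from −0.027 to 0.34. The cause was not tested. Over all features, the fibroblast BAPN count of 4211 became 2356 with only the groups compared, 281 on slide 1, 0 with the replicate block, and 1616, 1720, 908 and 1789 without vehicle replicates 2 and 4 and BAPN replicates 2 and 4. The count in vehicle became 6064 on slide 1 and 3897 on slide 2, and 1287 on slide 2 under BAPN. For BAPN in ATII cells it became 2592 on slide 2, which holds 1 ATII BAPN array, and 1 without ATII BAPN replicate 1. For the difference of effects it became 122 on slide 1, 2 without a filter, 1 after position correction, 275 without ATII BAPN replicate 4 and 15 without fibroblast BAPN replicate 1. The share of fibroblast BAPN calls that were higher was 17.1%, and 9.81% with normexp and 26.6% after position correction. Low signal over background limits H2-Aa and Ciita.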
